A study of Mus musculus with 4 samples.

Results

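The genes described here encode the subunits of the constitutive proteasome, the chaperones that assemble it and a few of its regulators. They were chosen by name: symbols that start with Psm, a letter from a to g and a digit were kept, without the immunoproteasome subunits Psmb8, Psmb9 and Psmb10 and without Psme1 and Psme2. The rule found 45 genes of the 19505 with a symbol on the arrays, each measured by 1 feature. By role, 13 are subunits of the core particle, 17 of the regulatory particle, 7 are assembly chaperones, 3 are activators or inhibitors, and 2 are subunits known from other tissues. The last 3, Psmc3ip, Psme3ip1 and Psme2b, carry the name of a subunit and are no subunit of the constitutive particle. The core subunit Psmb5 was not analysed here.

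The proteasome is the barrel-shaped protease that breaks down proteins tagged with ubiquitin. Its core particle stacks outer rings of alpha subunits, which gate the entry, on inner rings of beta subunits, some of which cut peptide bonds. The regulatory particle caps the core: its lid removes ubiquitin, and its base holds a ring of ATPases that unfold the substrate and feed it into the core. In T cells the proteasome takes part in cell cycle progression, in the release of NF-kappa-B and in making peptides for MHC class I.

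The cells were CD8+ T cells of C57/BL6 mice, taken from spleen and lymph nodes. All cultures were activated for 3 days with beads carrying antibodies to CD3 and CD28 in medium with IL-2. The 2 control cultures were left untreated and the 2 spermidine cultures had 25 µM of this polyamine in the medium. RNA was measured on 1 Clariom S Mouse array per culture, and values are log2 signals, so a difference of 1 is a doubling. The labels call the arrays of a group biological replicates and do not say from which or how many animals, so p-values measure only the spread between these samples, which may be technical.

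Genes of CD8+ T cells were bright, with 9 measured markers averaging 14.07 and 14.18 in the controls and 13.98 and 14.19 in the spermidine arrays. The 7 measured B cell markers averaged 5.77 and 5.64 in the controls and 6.45 and 6.20 in the spermidine arrays, all 7 had a difference above 0, and 4 of the 7 stayed under the background level on every array. That level, 6.35, is the mean 95th percentile of features with no genomic target. Of the 7 B cell markers, 3 had an unadjusted p under 0.05 with a higher value (limma), beside 3.38% of all features. Of these 3, Cd22 stayed under background on every array. The marker lists were chosen with earlier results of these data known, so such shares are a description and no test. Cd180 differed most, by 1.54. Markers of macrophages, of NK cells and of platelets stayed under background on every array in 6 of 6, 3 of 4 and 2 of 2. Their median differences were 0.06, 0.28 and 1.06. The listed red cell markers were not analysed here. Of the CD4 T cell markers, Cd4 lay between 6.59 and 7.24, above background on every array, with a difference of -0.06. Cd40lg stayed under background on every array. The part of these other cells in the differences below was not tested. In the limma fit over 22206 gene features, 0 had a Benjamini-Hochberg adjusted p under 0.05 and 1558 had an unadjusted p under 0.05. The median difference of all gene features was -0.01. With arrays there is no sequencing depth, and precision rests on their number.

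None of the 45 proteasome genes changed by the test across all features. Of the 45, 0 passed the adjusted threshold, beside 0% of all gene features, and 0 had an unadjusted p under 0.05, beside 3.64% of all features lower and 3.38% higher. Adjusted p-values of the 45 ran from 0.717 to 0.998 (limma). The fitted differences lay between -0.66 and 0.25, with a median of -0.12; 30 were below 0 and 15 above, where 50.9% of all features were below 0 and 49.1% above. Both spermidine arrays lay below both control arrays in 10 of the 45 genes, beside 18.4% of all features, and above them in 2, beside 18.3%. Of the features at or above the median level these shares were 21.5% and 19.2%. Of the 40 genes above background on every array, both spermidine arrays lay below both controls in 7 and above them in 2. In bulk RNA of this kind, fewer cells of a type and less RNA per cell cannot be told apart.

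**Figure D1:**
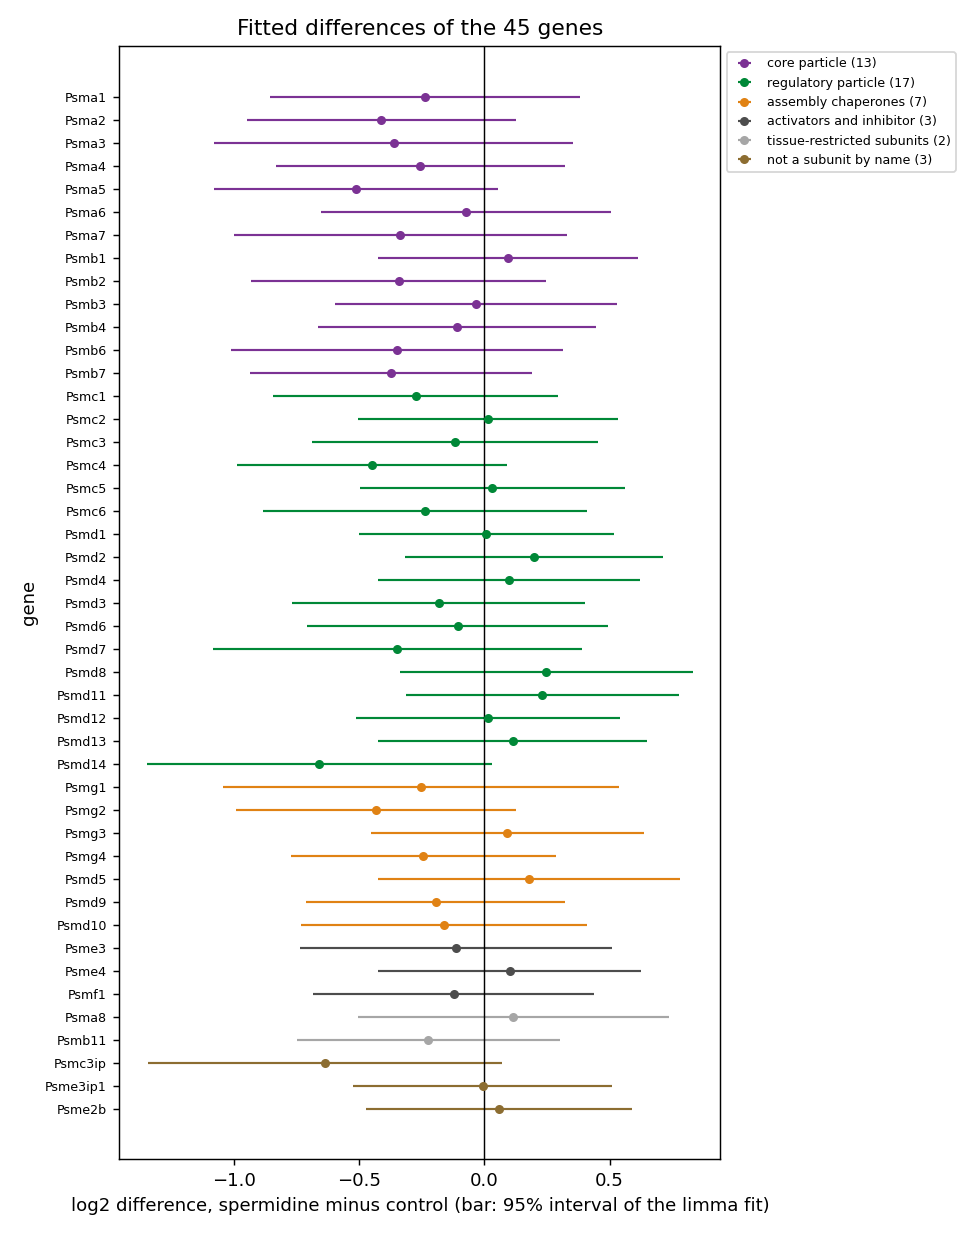
Log2 difference between spermidine and control cultures for the 45 genes, with the 95% interval of the limma fit over 4 arrays as a bar and the colour giving the role. All 45 intervals cross 0, and the lowest values are those of Psmd14 and Psmc3ip.

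The intervals say how much could have gone unseen. Of the 40 genes above background on every array, 33 had a 95% interval (limma) that stayed within a 2-fold change in either direction and 5 had one within a 1.5-fold change. For the 30 subunits of core and regulatory particle the interval reached 0.51 to 0.74 to either side of the fitted difference. With 2 arrays per group, a fitted difference smaller than the gene's own bound has an unadjusted p above 0.05 (limma). The bounds are no detection limit for the adjusted threshold, which larger differences also missed. Psmb9 and Uchl5, pathway genes described below, differed by -0.97 and -0.76, and both had an adjusted p of 0.637 (limma).

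Core particle subunits were lower in the spermidine cultures by their fitted values, with 12 of 13 below 0 and a median of -0.34, which is 1.26-fold. Of the gene features at or above the median level, which include every measured core subunit, 53.4% were below 0 and the median was -0.03. All 7 measured alpha subunits and 5 of the 6 measured beta subunits had a value below 0; after cyclic loess Psmb3 stood at 0.01 and 11 of the 13 were below 0. The arrays of the groups overlapped in 10 of the 13, and in 3 both spermidine arrays lay lowest, beside 18.4% of all features. Of the features at or above the median level this share was 21.5%. Without control replicate 1, which was above control replicate 2 in 13 of 13, the core median was -0.02, with 7 of 13 below 0.

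Psma5, an alpha subunit, had the lowest core value. Its log2 signals were 10.92 and 10.55 in the controls and 10.35 and 10.09 in the spermidine arrays. Both spermidine arrays were lower than both control arrays, a difference of -0.51 ± 0.25 (SE, n = 2 per group; adjusted p = 0.733, limma). Psma2, another alpha subunit, gave 14.15 and 13.87 in the controls and 13.69 and 13.50 in the spermidine arrays. Again the groups did not overlap, with a difference of -0.41 ± 0.23 (SE; adjusted p = 0.763, limma). Psmb7, the beta subunit with trypsin-like activity, gave 13.52 and 13.09 without spermidine and 12.96 and 12.90 with it. Here the spermidine arrays were close together and the control arrays were not, and the difference of -0.37 ± 0.24 (SE; adjusted p = 0.803, limma) was smaller than the gap of 0.43 between the controls.

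The other core subunits overlapped between groups. Psmb6, the beta subunit with caspase-like activity, stood at 12.71 and 12.09 in the controls and at 12.27 and 11.83 in the spermidine arrays. Its difference of -0.35 lies beside a gap of 0.61 between the control arrays. Psma3 (-0.36), Psmb2 (-0.34), Psma7 (-0.34), Psma4 (-0.26), Psma1 (-0.24) and Psmb4 (-0.11) had the same sign, and these alpha subunits and beta subunits without a catalytic site build the walls of the barrel. The 3 highest core values were near 0. Psma6 stood at 12.84 and 12.38 without spermidine and 12.65 and 12.43 with it (-0.07 ± 0.25, SE). Psmb3 stood at 10.92 and 10.55 without and 10.82 and 10.59 with it (-0.03 ± 0.24, SE). Psmb1 was the only core subunit above 0, at 13.92 and 13.69 in the controls and 13.90 and 13.89 in the spermidine arrays (0.09 ± 0.23, SE). The adjusted p of Psma6, Psmb3 and Psmb1 ran from 0.958 to 0.992 (limma).

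**Figure D2:**
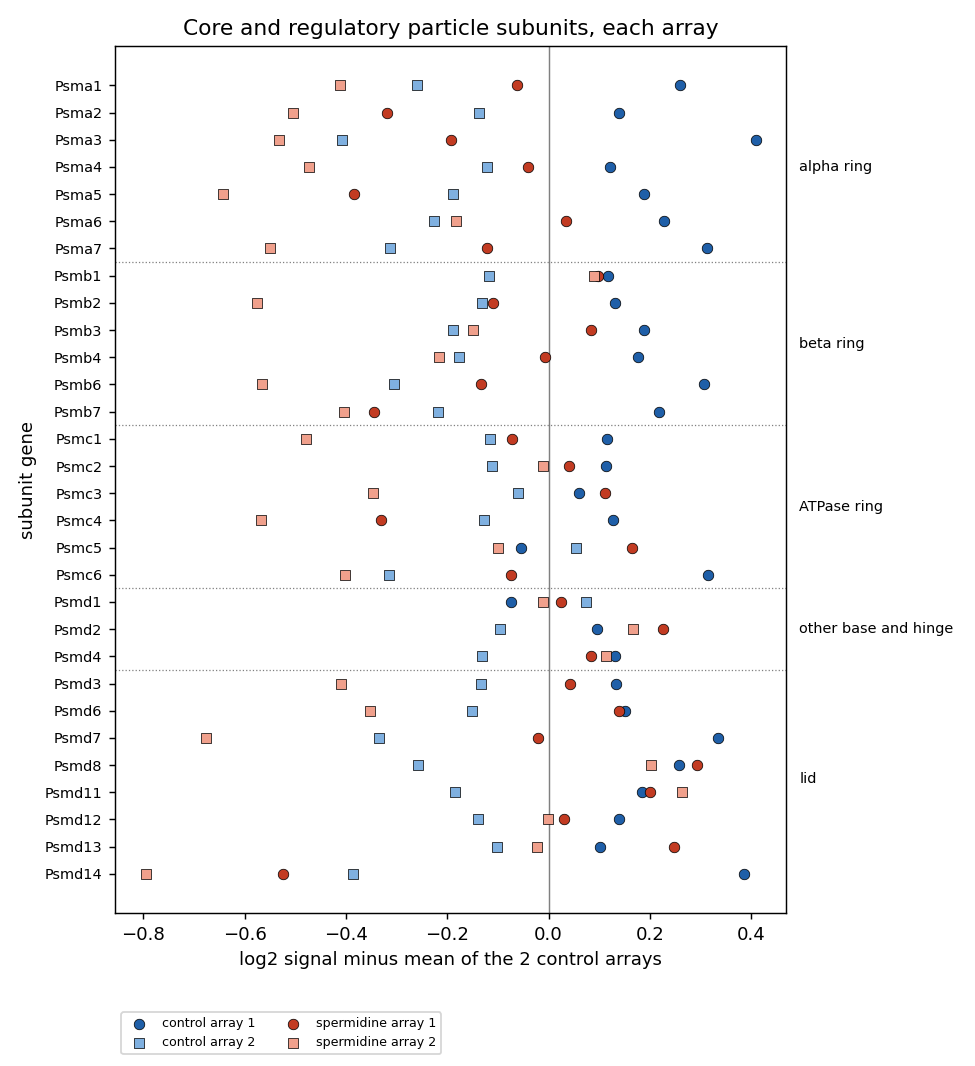
Log2 signal of each array minus the mean of the 2 control arrays for the 30 subunits of core and regulatory particle, grouped by role; blue marks are control arrays and red marks spermidine arrays, circles replicate 1 and squares replicate 2. Control replicate 1 is above control replicate 2 in 28 of the 30 genes and spermidine replicate 1 above spermidine replicate 2 in 28 of the 30.

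Regulatory particle subunits divided, with 8 of 17 below 0 and 9 above and a median of 0.01; after median centring the median was -0.01 and 10 were below 0. In 2 both spermidine arrays lay below both controls, beside 18.4% of all features, and in 2 above, beside 18.3%. The arrays of the other 13 overlapped. The ATPase ring had 4 of 6 below 0 and a median of -0.18, the lid 4 of 8 and a median of -0.05, and the remaining base and hinge subunits Psmd1, Psmd2 and Psmd4 were all above 0, Psmd1 not after median centring (-0.01). The mean difference of the 17 was -0.08, so mean and median had opposite signs.

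Psmd14, the lid enzyme that cuts the ubiquitin chain off a substrate, had the lowest value of the 45. Its control arrays gave 12.25 and 11.48 and its spermidine arrays 11.34 and 11.07. The groups did not overlap, but the control arrays lay 0.77 apart, more than the difference of -0.66 ± 0.30 (SE; adjusted p = 0.717, limma), which is 1.58-fold lower. Without control replicate 1 the difference was -0.27, and without control replicate 2 it was -1.05. Psmd7, the lid subunit that pairs with Psmd14, stood at 14.17 and 13.50 in the controls and 13.82 and 13.16 in the spermidine arrays. Its groups overlapped (-0.35 ± 0.32, SE), and the value became -0.01 without control replicate 1 and, without spermidine replicate 2, -0.02. Arrays of the same replicate number differed by -0.36 and -0.34, though the numbers are not shown to pair the samples. Psmc4, an ATPase, gave 12.50 and 12.25 in the controls and 12.05 and 11.81 in the spermidine arrays. Both spermidine arrays were lower, and the difference of -0.45 ± 0.23 (SE; adjusted p = 0.745, limma) exceeded the gaps of 0.25 and 0.24 within the groups.

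At the upper end were lid and base subunits. Psmd8 of the lid stood at 12.53 and 12.01 without spermidine and 12.57 and 12.47 with it (0.25 ± 0.25, SE), and the groups overlapped. Psmd11, also of the lid, gave 11.77 and 11.40 in the controls and 11.79 and 11.85 in the spermidine arrays (0.23 ± 0.24, SE). Its spermidine arrays were both higher, spermidine replicate 1 by 0.016 over the higher control. Psmd2, a large scaffold subunit of the base, gave 12.84 and 12.65 in the controls and 12.97 and 12.91 in the spermidine arrays (0.20 ± 0.22, SE). Here too both spermidine arrays were higher; the adjusted p of Psmd8, Psmd11 and Psmd2 ran from 0.878 to 0.895 (limma). Psmd4, a ubiquitin receptor of the hinge, stood at 0.10 and Psmd1, the partner of Psmd2, at 0.01.

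The remaining ATPases and lid subunits overlapped between groups. Differences were -0.28 for Psmc1, -0.24 for Psmc6, -0.12 for Psmc3, 0.01 for Psmc2 and 0.03 for Psmc5, all members of the unfolding ring. In the lid they were -0.18 for Psmd3, -0.11 for Psmd6, 0.01 for Psmd12, which stood at -0.00048 after median centring, and 0.11 for Psmd13.

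Promoter sequences were read for the subunits whose arrays did not overlap, to show what letters lie ahead of genes at both ends of the order. The stretches are the last 160 bases before the annotated start, from RefSeq on GRCm38.p6, written along the gene. Capitals mark matches on either strand to TGACNNNGC, the core of the antioxidant response element used by Nfe2l1 and Nfe2l2, to CCAAT, or to CCGGAAG, a binding sequence of ETS factors. In the 37 promoters searched 0 matches of 1 motif overlapped a match of another. The genes with lower spermidine arrays come first.
Psma5, chr3:108256766-108256925, plus strand: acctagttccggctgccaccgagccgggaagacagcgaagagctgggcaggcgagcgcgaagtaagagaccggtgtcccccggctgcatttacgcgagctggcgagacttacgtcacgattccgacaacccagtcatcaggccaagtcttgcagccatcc
Psma2, chr13:14613082-14613241, plus strand: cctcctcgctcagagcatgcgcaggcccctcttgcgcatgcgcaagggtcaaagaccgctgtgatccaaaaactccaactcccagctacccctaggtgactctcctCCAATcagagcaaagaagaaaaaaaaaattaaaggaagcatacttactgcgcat
Psmc4, chr7:28050093-28050252, minus strand: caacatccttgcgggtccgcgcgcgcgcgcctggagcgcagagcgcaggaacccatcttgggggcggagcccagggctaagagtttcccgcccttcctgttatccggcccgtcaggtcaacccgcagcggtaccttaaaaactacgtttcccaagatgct
Psmd14, chr2:61711534-61711693, plus strand: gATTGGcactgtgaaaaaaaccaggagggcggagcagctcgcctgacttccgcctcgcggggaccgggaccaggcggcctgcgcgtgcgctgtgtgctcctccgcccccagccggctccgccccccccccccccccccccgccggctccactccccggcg
Psmd2, chr16:20651492-20651651, plus strand: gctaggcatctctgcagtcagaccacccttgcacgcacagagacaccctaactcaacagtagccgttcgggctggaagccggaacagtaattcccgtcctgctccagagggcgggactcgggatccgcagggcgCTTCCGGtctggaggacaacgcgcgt
Psmd11, chr11:80428455-80428614, plus strand: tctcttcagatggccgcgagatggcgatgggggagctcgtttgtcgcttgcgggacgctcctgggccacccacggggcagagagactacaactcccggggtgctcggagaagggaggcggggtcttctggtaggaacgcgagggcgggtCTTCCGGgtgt
Psma2 and Psmd14 hold a CCAAT match, Psmd2 and Psmd11 hold a CCGGAAG match written here on the reverse strand, and Psma5 and Psmc4 hold none of the 3 in this window. Psmb7 was not among the promoters used.

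Promoters of 37 of the 45 genes were in the table; Psma8, Psmb1, Psmb2, Psmb7, Psmc3, Psmd3, Psmd7 and Psmg2 were not. Within 250 bases before the start, CCGGAAG occurred in 8 of 14 regulatory particle genes and in 1 of 10 core genes, beside 10.5% of the 15691 genes of the table with a symbol on the arrays and 7.83% of all 27025 genes in it. CCAAT occurred in 6 of 10 core genes and 4 of 14 regulatory particle genes, beside 39.2% of the genes on the arrays and 37.5% of all. The 8 regulatory genes with CCGGAAG had a median difference of 0.01 and the 6 without it 0.02, and the 6 core genes with CCAAT had a median of -0.29 and the 4 without it -0.30. For the 4 regulatory genes with CCAAT, which include Psmd14, the median was -0.13, and for the 10 without it 0.02. Psma6, the 1 core gene with CCGGAAG, stood at -0.07 and the median of the 9 others was -0.34. None of these comparisons was tested. The promoter counts are descriptions of letters and say nothing about which factors bind.

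The antioxidant response element core is shown because Nfe2l1, which raises proteasome genes when the proteasome is inhibited, acts through it. It occurred in 4 of the 37 promoters, 10.8%, beside 12.2% of the genes on the arrays and 11.5% of all. Each is shown in 61 bases around its match in capitals, with the same build.
Psmb6, chr11:70525296-70525356, plus strand: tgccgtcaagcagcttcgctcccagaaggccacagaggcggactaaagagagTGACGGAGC
Psmc6, chr14:45329574-45329634, plus strand: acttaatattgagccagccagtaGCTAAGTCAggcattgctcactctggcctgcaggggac
Psmd12, chr11:107479278-107479338, plus strand: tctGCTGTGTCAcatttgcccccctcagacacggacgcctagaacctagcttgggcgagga
Psmd9, chr5:123228129-123228189, plus strand: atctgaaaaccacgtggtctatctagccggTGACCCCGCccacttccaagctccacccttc
The differences of these genes were -0.35, -0.24, 0.01 and -0.20, in that order, all with arrays that overlapped apart from Psmd9.

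The assembly chaperones had 5 of 7 values below 0 and a median of -0.20. In 3 of the 7 both spermidine arrays lay lowest, beside 18.4% of all features; of the 5 above background on every array this held for 2, beside 21.5% of the features at or above the median level. Psmg1 and Psmg2 form the pair that starts the alpha ring. Psmg2 gave 12.05 and 11.62 in the controls and 11.39 and 11.42 in the spermidine arrays. Both spermidine arrays were lower and close together (-0.43 ± 0.24, SE; adjusted p = 0.761, limma). Its partner Psmg1 gave 9.94 and 8.89 without spermidine and 9.24 and 9.08 with it. The control arrays of Psmg1 lay 1.05 apart, the widest control gap of the 45, and enclosed both spermidine arrays (-0.25 ± 0.34, SE). Without control replicate 1 its value was 0.27 and without control replicate 2 it was -0.78.

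Psmg3 and Psmg4, the pair that works with Psmg1 and Psmg2, were dim. Psmg4 stood at 6.42 and 6.13 in the controls and 6.06 and 5.999 in the spermidine arrays, so only control replicate 1 was above background and the difference of -0.25 ± 0.23 (SE) is no measure of a fold. Psmg3 lay between 3.38 and 3.73 on all 4 arrays, under background. The chaperones of the base, Psmd5, Psmd9 and Psmd10, each hold an ATPase until the ring closes. Psmd5 gave 10.08 and 9.63 in the controls and 10.22 and 9.84 in the spermidine arrays (0.18 ± 0.26, SE), with overlap. Psmd9 gave 7.53 and 7.72 without spermidine and 7.38 and 7.48 with it (-0.20 ± 0.22, SE), the spermidine arrays both lower. Psmd10, also known as gankyrin, gave 9.96 and 9.49 without and 9.59 and 9.55 with it (-0.16 ± 0.25, SE), with overlap.

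Among the regulators, Psme3, a nuclear activator cap, stood at 14.59 and 14.19 in the controls and 14.52 and 14.02 in the spermidine arrays (-0.11 ± 0.27, SE). Psme4, the activator known from sperm formation and DNA repair, differed by 0.10 and Psmf1, an inhibitor of the core, by -0.12. The arrays of all 3 overlapped. The subunits known from other tissues were at background: Psma8, an alpha subunit of the testis, lay between 2.58 and 3.21, and Psmb11, the beta subunit of the cortical thymus, between 2.88 and 3.26 on the 4 arrays.

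Of the genes that only share a name with a subunit, Psmc3ip, a partner of meiotic recombinases, gave 6.87 and 7.31 in the controls and 6.82 and 6.08 in the spermidine arrays. Both spermidine arrays were lower, spermidine replicate 1 by less than the gaps within the groups, and spermidine replicate 2 lay under background (-0.64 ± 0.31, SE; adjusted p = 0.733, limma). Psme3ip1 differed by -0.01, and by 0.04 after cyclic loess or a further quantile normalization, and Psme2b by 0.06. Psme2b is a copy of Psme2, so its signal cannot be separated with certainty from that of Psme2, which differed by -0.11.

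**Figure D3:**
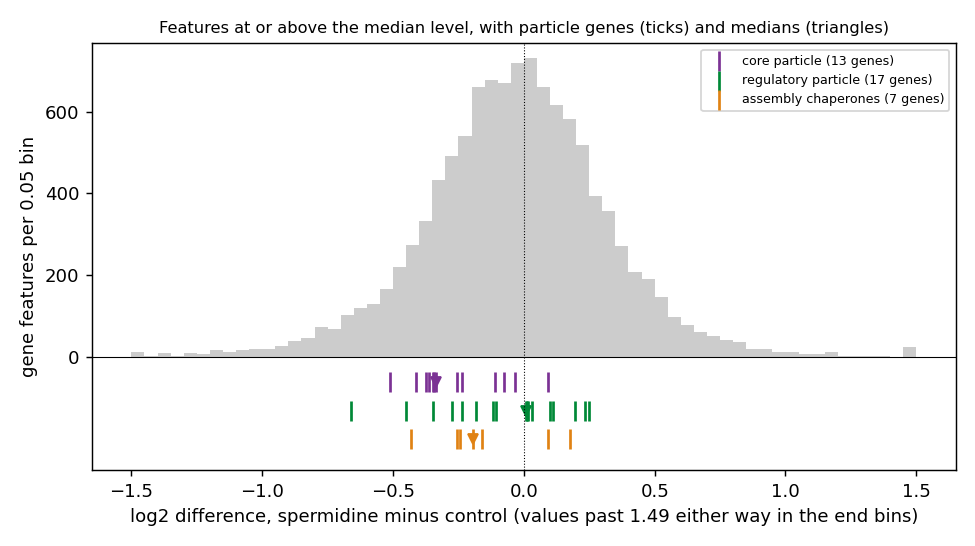
Histogram of the log2 differences of the 11103 gene features at or above the median level, with the core, regulatory particle and chaperone genes as ticks and their medians as triangles. The core median is -0.34 and the regulatory median 0.01. The histogram shows the spread of single features, not that of medians over sets of genes.

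The core and the regulatory particle were set against each other in 3 ways, each a description without a test, since 2 arrays against 2 cannot give an exact permutation p below 0.333. The planned summary, by the median level of each particle on each array, gave 0.03. Core minus regulatory particle stood at 0.75 and 0.37 in the controls and at 0.60 and 0.58 in the spermidine arrays, which lay between the control values. The other ways were added after seeing the data. Core minus regulatory particle was -0.34 by the medians of the genes' differences and -0.17 by their means. The summary by levels subtracts levels of different probes, and the gene at the core median was Psma3 in control replicate 1 and Psma6 on the other 3 arrays. Both summaries of differences within genes were below 0. The difference of the means can be split by array, with each gene centred on its own mean over the arrays. Core minus regulatory particle was then 0.15 and 0.02 in the controls and -0.06 and -0.11 in the spermidine arrays, which did not overlap. This split rests on a summary added after seeing the data, and no share over other sets of genes was computed. Gene by gene, 12 of 13 core values lay below the regulatory median, 5 regulatory values lay above the highest core value, and 0 core values lay below that of Psmd14.

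On average over the core and over the regulatory particle, arrays of the same group differed by as much as the groups did. Centred on each gene, the 13 core subunits averaged 0.34 and -0.09 in the controls and 0.01 and -0.27 in the spermidine arrays. The gap between the control arrays was 0.43 and that between the spermidine arrays 0.28, while the groups differed by -0.25. Control replicate 1 was the highest array on average and enclosed with control replicate 2 the mean of spermidine replicate 1. The regulatory particle averaged 0.19 and -0.11 without spermidine and 0.08 and -0.16 with it, gaps of 0.30 and 0.24 against a difference of -0.08. For the chaperones the means were 0.23 and -0.08 without spermidine and -0.05 and -0.10 with it. Their gaps were 0.31 and 0.05 against a difference of -0.15. Gene features at or above the median level averaged 0.05, -0.02, 0.02 and -0.05 on the same arrays.

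**Figure D4:**
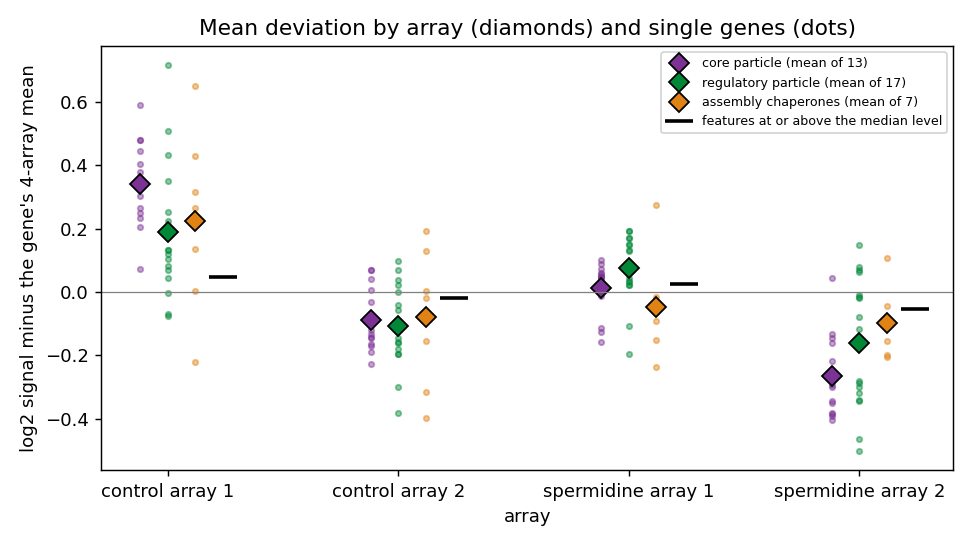
Deviation of each gene from its own mean over the 4 arrays (small dots) and the mean over the core, regulatory particle and chaperone genes (diamonds), beside the mean of the gene features at or above the median level (black bars). Core subunits average 0.34 in control replicate 1 and -0.27 in spermidine replicate 2, with the other arrays between.

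In both groups replicate 1 was above replicate 2 in 32 of the 45 genes and in 13 of 13 core subunits, beside 30% of all gene features and 41.1% of those at or above the median level. The group difference exceeded the gap within each group in 6 of the 45 genes, Psma2, Psma5, Psmc4, Psmd2, Psmg2 and Psmd9, beside 24.5% of all features. The core median, -0.34 with all arrays, moved when single arrays were left out. Leaving out 1 array makes the replicate numbers unequal between groups, so the move takes in the gap between replicates 1 and 2. By replicate number, the centred core means were 0.34 without and 0.01 with spermidine for replicate 1, and -0.09 and -0.27 for replicate 2. The core median was -0.02 without control replicate 1, with 7 of 13 below 0, and -0.11 without spermidine replicate 2, with 10 below 0. Without control replicate 2 it was -0.50 and 13 of 13 were below 0. The regulatory median ran from -0.13 without control replicate 2 to 0.04 without control replicate 1. With an array left out, groups of 2 and 1 overlap less often, so counts of genes without overlap are read against all features with the same arrays. The spermidine arrays were below the controls in 14 of the 45 genes without control replicate 1 (33.9% of all features), 31 without control replicate 2 (34.4%), 25 with spermidine replicate 1 left out (37.3%) and 12 with spermidine replicate 2 left out (32.8%). In the same order they were above in 14 (31.1%), 6 (35.5%), 3 (34.8%) and 9 (33.7%). With all arrays the count above was 2, and became 6 after a further quantile normalization (19.2% of all features), 6 after cyclic loess (19.1%) and 0 after median centring (17.2%).

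Other genes of the pathway were given by a list that holds ubiquitin handling, the control of proteasome genes, and Psmb8, Psmb9, Psmb10, Psme1 and Psme2. The list was chosen with earlier results of these data known, so the shares set beside it are no test. Of 35 names 26 were measured: 18 were below 0, beside 50.9% of all features, and 8 above, with a median of -0.12. None passed the adjusted threshold (limma, 0 of 26); 3, Uchl5, Psmb9 and Psmb10, had an unadjusted p under 0.05 with a lower value, beside 3.64% of all features, and 0 with a higher one, beside 3.38%. Without Psmb8, Psmb9, Psmb10, Psme1 and Psme2, which were all below 0, 13 of 21 were below 0, the median was -0.07 and 1, Uchl5, had an unadjusted p under 0.05. Nfe2l1, the factor that restores proteasome genes, gave 12.39 and 12.35 in the controls and 12.41 and 12.03 in the spermidine arrays (-0.15 ± 0.24, SE), with overlap. Nfe2l2, the factor of the antioxidant response, gave 8.36 and 7.84 without spermidine and 8.10 and 7.76 with it (-0.17 ± 0.27, SE), also with overlap. Pomp, which matures the core, differed by -0.19 and the small lid subunit Sem1 by 0.12; Adrm1 and Paaf1 were not analysed here. Uchl5, a deubiquitinase on the regulatory particle, gave 13.05 and 12.81 in the controls and 12.41 and 11.92 in the spermidine arrays. Both spermidine arrays of Uchl5 were lower (-0.76 ± 0.26, SE; adjusted p = 0.637, limma). Vcp, the unfoldase that extracts ubiquitin-tagged proteins, gave 12.92 and 12.81 without spermidine and 13.24 and 13.40 with it (0.46 ± 0.22, SE), the highest of the list, and Akirin2, which brings proteasomes into the nucleus, followed at 0.24.

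The immunoproteasome subunits, which replace catalytic beta subunits of the core in immune cells, were also below 0 by their fitted values, by unequal amounts, and 0 of the 3 passed the adjusted threshold. Psmb9, the counterpart of Psmb6 and the lowest of the list, gave 12.64 and 12.57 in the controls and 11.93 and 11.34 in the spermidine arrays (-0.97 ± 0.26, SE; adjusted p = 0.637, limma). Psmb10, the counterpart of Psmb7, differed by -0.70 ± 0.29 (SE; adjusted p = 0.706, limma) and Psmb8 by -0.23 ± 0.23 (SE; adjusted p = 0.875, limma). Beside Psmb9 and Psmb10 the constitutive Psmb6 and Psmb7 stood at -0.35 and -0.37; the difference between these pairs was not tested.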

How the data were processed

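RNA of 2 control and 2 spermidine cultures was measured on Clariom S Mouse arrays, from 250 ng of total RNA each. Each deposited value is a log2 signal of 1 feature; per the submitters' processing notes the authors used RMA in Affymetrix Expression Console, with versions not given in the sources used here. RMA subtracts background, equalises array distributions and summarises probes, which compresses differences of dim features. The log2 scale was inferred from the values. Groups and replicate numbers came from the sample titles.

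Of 28846 features, 6640 controls were set aside and 22206 gene features were fitted by limma 3.58.1 under R 4.3.3 (lmFit, eBayes; degrees of freedom 5.96 prior, 2 residual); tests were two-sided and p-values were adjusted by Benjamini-Hochberg over all gene features, with a threshold of 0.05. The procedure was tested on simulated data with independent features and planted changes larger than any fitted for the 45 genes. That test does not cover changes of their size. The platform annotation named 19572 features with 1 symbol, 0 with several and 2634 with none; the symbols and Entrez identifiers of all 45 genes stood in the RefSeq table of GRCm38.p6. The brightest feature per symbol was used. All 45 genes are named: the 3 highest and 3 lowest of core, regulatory particle and chaperones with full values, and of the other pathway genes the 2 with the largest difference in each direction, and those of 6 fixed by name that were measured. Genes and lists were chosen with earlier results of these data known. Markers of T, B, NK and red cells, macrophages and platelets were also listed. Alternatives were other prior variances, array weights, further normalizations, filters on dim features, feature averaging, the replicate number as a block, and leaving out each array. Array annotation carries no build here, so coordinates are given for promoters only, from the RefSeq table.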

Additional observations from a re-analysis of the deposited data

How the results depend on the processing

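No alternative called any of the 45 genes at an adjusted p of 0.05 (limma); with all arrays the smallest adjusted p among them was 0.375, with the replicate block, and 2 of the 45 then had an unadjusted p under 0.05. The 1 feature past the threshold, Hmox1, passed with a prior variance that follows intensity, with median centring, with cyclic loess, with the filter at the median level and with the replicate block, 1 feature in each case against 0 as reported. Deviations of arrays with the same number correlated at 0.21 over all gene features and 0.35 over those at or above the median level; with 2 arrays a group the numbers are not shown to pair the samples, and the replicate block raised the features with an unadjusted p under 0.05 from 1558 to 2350.

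The median difference of the core particle kept its sign after each further normalization and with each array left out. The other alternatives could not move the fitted difference of a core gene. The core median was -0.27 after a further quantile normalization, -0.28 after cyclic loess and -0.35 after median centring. With an array left out, which makes the replicate numbers unequal between groups, it ran from -0.50 to -0.02. That of the regulatory particle ran from -0.13 to 0.04 and that of the chaperones from -0.39 to -0.08 with an array left out. Genes with both spermidine arrays above the controls numbered 2, and 6 after a further quantile normalization, 6 after cyclic loess, 0 after median centring and 3 to 14 with an array left out; those below numbered 10, and 12 to 31 with an array left out. Groups of 2 and 1 overlap less often: with an array left out 31.1% to 35.5% of all features were above and 32.8% to 37.3% below, against 18.3% and 18.4% with all arrays. Core minus regulatory particle was 0.03 by array medians and ran from -0.16 to 0.22 with an array left out. By medians and by means of the genes' differences, both added after seeing the data, it was -0.34 and -0.17. With an array left out these ran from -0.37 to -0.07 and from -0.24 to -0.10. The cause was not tested.

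Of the 45 genes 18 kept their direction without each array in turn and 41 under the alternatives with all arrays. Among the latter only the further normalizations could change a direction. The exceptions with all arrays were Psme3ip1 (0.044 after a further quantile normalization and 0.043 after cyclic loess), Psmb3 (0.013 after cyclic loess), and Psmd1 (-0.0069) and Psmd12 (-0.00048) after median centring. With an array left out the log2 difference ran for Psma1 from -0.50 to 0.022, Psma3 from -0.77 to 0.046, Psma6 from -0.30 to 0.15, Psma8 from -0.20 to 0.43, Psmb1 from -0.024 to 0.21, Psmb3 from -0.22 to 0.16, Psmb4 from -0.29 to 0.066. It ran for Psmc2 from -0.098 to 0.13, Psmc3 from -0.35 to 0.11, Psmc5 from -0.10 to 0.16, Psmc6 from -0.55 to 0.077, Psmd1 from -0.066 to 0.081, Psmd3 from -0.41 to 0.043, Psmd4 from -0.033 to 0.23. It ran for Psmd5 from -0.047 to 0.40, Psmd6 from -0.35 to 0.14, Psmd8 from -0.01 to 0.50, Psmd10 from -0.40 to 0.075, Psmd12 from -0.13 to 0.15, Psmd13 from -0.023 to 0.25, Psme2b from -0.061 to 0.18. It ran for Psme3 from -0.36 to 0.14, Psme4 from -0.0083 to 0.21, Psme3ip1 from -0.12 to 0.10, Psmf1 from -0.32 to 0.075, Psmg1 from -0.78 to 0.27, Psmg3 from -0.084 to 0.27. The filters removed Psmg3, Psma8 and Psmb11.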
